A study of Mus musculus with 6 samples.

Results

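The 10 genes described here encode RNA-binding proteins that act on the tails and the AU-rich ends of mRNAs: *Cpeb1*, *Cpeb2*, *Cpeb3* and *Cpeb4*, *Pabpc1* and *Pabpc4*, and *Zfp36*, *Zfp36l2*, *Khsrp* and *Elavl1*. They were chosen by name, as cytoplasmic polyadenylation and AU-rich element binding proteins, and not by a rule on their values. The group was drawn around mRNA tails, on which the deadenylase PARN acts. It was chosen with earlier results of these data known. Whether each of these proteins works with PARN was not tested. All 10 were found among the 55060 genes listed for mouse pancreatic islets. All 10 also had a mean expression of at least 0.1 FPKM, the level from which 21211 genes were tested. FPKM counts the fragments of a gene relative to gene length and library size, here a scaled library size described at the end.

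RNA was sequenced from 3 islet samples of cKO mice and 3 of Ctrl mice, all at 12 weeks of age. The cKO mice were Ins2-Cre; Parn f/f, so that Cre made from the *Ins2* promoter removed exon 7 of *Parn* in β cells. The Ctrl mice were Parn f/f mice and other littermates. The sources used here do not say which Ctrl samples carried Cre, or whether a sample pooled several animals. Whole islets were used, so RNA of α, δ and PP cells, which an *Ins2* promoter is not meant to target, is part of every sample. In such bulk samples, fewer cells of a type and less RNA per cell cannot be told apart. The p-values measure the spread between these samples only.

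The poly(A) tail at the 3' end of an mRNA is kept, lengthened or trimmed in the cytoplasm, and the tail in turn bears on translation and stability of the mRNA. CPEB proteins bind the cytoplasmic polyadenylation element (CPE) of a 3' UTR; CPEB1 was described in oocytes in one complex with the poly(A) polymerase TENT2 (GLD2), the cleavage and polyadenylation factors, symplekin and PARN. Poly(A)-binding proteins coat the tail and contact the translation factor eIF4G. AU-rich elements (AREs) are bound by ZFP36 (tristetraprolin), ZFP36L2 and KHSRP, which bring in deadenylases and the exosome, and by ELAVL1 (HuR), which stabilises many of the same mRNAs.

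Several of these binders carry the elements that they or their relatives bind, and the sites below are shown for that reason. For each gene the protein-coding GENCODE M21 transcript with a complete end and the longest 3' UTR was read on the sense strand. The nonamer TTATTTATT, the core site of the ZFP36 family, was present in the 3' UTR of 4 of the 10 genes, with 1 match each in *Zfp36*, *Zfp36l2* and *Cpeb1* and 8 matches in *Elavl1*, most of which overlap a neighbour. For the whole 3' UTR no share over all genes is given, so this count of 4 has nothing to be compared with. The first match of each gene is printed 5' to 3' with the nonamer in capitals (GRCm38, minus strand in all 4).
Zfp36 at chr7:28376952-28376978: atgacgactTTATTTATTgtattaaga
Zfp36l2 at chr17:84184915-84184941: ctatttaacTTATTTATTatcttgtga
Cpeb1 at chr7:81347978-81348004: cacttgggtTTATTTATTaaagcgctt
Elavl1 at chr8:4285789-4285815: tcatgaaaaTTATTTATTtatttattt

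The nonamer of *Zfp36* starts 186 bases before the annotated end of the transcript, whereas those of *Cpeb1* and *Zfp36l2* start 970 and 1002 bases before it. Within the last 300 bases, *Zfp36* was the only one of the 10 genes with the nonamer. Of the 12347 tested genes whose 3' UTR is at least that long, 2.19% had the nonamer in this window, and 3.85% had its reverse complement. That reverse complement contains the polyadenylation signal AATAAA, which 71.1% of these genes had in this window. The 3.85% is therefore not a rate by chance, and whether the nonamer is rare here was not tested. The pentamer ATTTA, which lies inside the nonamer and is counted again there, was in this window of 7 of the 10 genes, against 44.0% of all genes.

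The CPE was searched in its forms TTTTAT and TTTTAAT, which cannot start at the same base. All 10 genes had at least 1 match in the whole 3' UTR, and the number ran from 1 in *Pabpc1*, *Pabpc4* and *Zfp36* to 24 in *Cpeb2*. Here too no share over all genes is given for the whole 3' UTR. In the last 300 bases, 9 of the 10 genes had a match, against 36.4% of the 12347 genes (48.3% for the reverse complements). *Zfp36l2* was the member without a match. The polyadenylation signal AATAAA followed by an A contains the reverse complement ATAAAA, so 48.3% is not a rate by chance either. The A and T content of the whole 3' UTR ran from 49.4% in *Khsrp* to 71.1% in *Pabpc1*. Base composition was not matched in this comparison. The following matches, near the end of the transcript, are shown because they lie on mRNAs of a CPEB protein, of both poly(A)-binding proteins and of *Khsrp*, whose match is the nearest of these to the end, with the CPE in capitals. *Cpeb1* is the only one of the 10 genes with the longer form in this window.
Cpeb1 at chr7:81347259-81347283, minus strand: gacttttctTTTTAATttaacgatt
Pabpc1 at chr15:36595840-36595863, minus strand: aaattaatgTTTTATagaccctgg
Pabpc4 at chr4:123298835-123298858, plus strand: tgatgccagTTTTATgttacaatc
Khsrp at chr17:57021082-57021105, minus strand: gtttttactTTTTATcgctcgttt

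These 4 matches start 249, 194, 82 and 46 bases before the end of the transcript, in the order printed. The polyadenylation signal AATAAA was in the same window of all 10 genes, against 71.1% of all genes. The Pumilio site TGTANATA was in none of the 10, against 10.1% of all genes. The length of the 3' UTR differed widely, from 425 bases in *Pabpc4* and 439 in *Pabpc1* to 4102 in *Cpeb4* and 4218 in *Elavl1*, and the long UTRs of *Cpeb2*, *Cpeb4* and *Elavl1* held the most matches. A match is a run of letters only. No binding was measured in these samples.

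**Figure D1:**
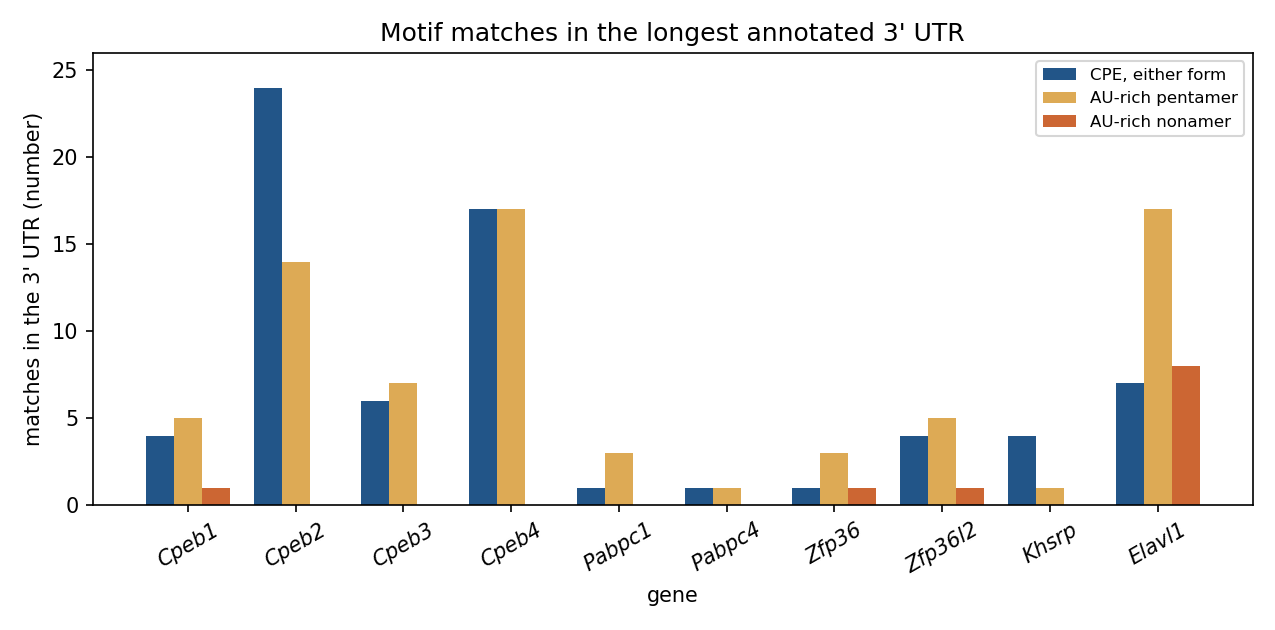
Number of matches in the longest annotated 3' UTR (vertical axis) of each gene (horizontal axis) to the CPE in either form, to the AU-rich pentamer and to the AU-rich nonamer. *Cpeb2* has 24 CPE matches, and *Elavl1* has 8 of the 11 nonamer matches.

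Each library held 16289408 to 17944775 reads on genes, of which *Ins1* and *Ins2* took 22.0% to 30.1%. The 9 β-cell markers summed to 235639 to 275948 FPKM in Ctrl and 195134 to 217318 in cKO islets. *Ins2* makes up most of this sum, and of the 9 markers singly, 2 were lower and 1, *G6pc2*, higher without overlap in cKO islets. Across all cell types, none of the markers searched was at 0 in all samples. Ctrl replicate 1 stood apart: its 7 leukocyte markers summed to 603 FPKM, against 34.9 to 75.8 in the other 5 samples, and all 7 were highest there. The 5 endothelial markers summed to 94.6 to 107 FPKM in Ctrl and 116 to 147 in cKO islets, without overlap. *Plvap* makes up most of this sum, and singly 2 of the 5 were higher without overlap. The 4 duct markers summed to 37.9 to 42.7 FPKM in Ctrl and 29.8 to 36.5 in cKO islets, without overlap. Singly, 1 was higher and 1 lower. The acinar sums (6154 to 17056 in Ctrl, 7797 to 28153 in cKO) and stroma sums (7.44 to 14.8, 11.2 to 36.6) overlapped. *Parn* itself had a mean of 7.45 ± 0.854 FPKM (SD, n = 3) in Ctrl and 5.24 ± 0.809 in cKO islets, without overlap. Its log2 fold change was -0.44 (SE 0.131), with an unadjusted p of 0.0135 and an adjusted p of 0.545 (limma).

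The levels of the 10 genes covered a wide range. *Zfp36* was the highest, at a mean of 41.4 FPKM over the 6 samples, followed by *Pabpc1* at 29.0, *Pabpc4* at 22.0, *Cpeb1* at 20.4, *Khsrp* at 16.96 and *Zfp36l2* at 16.6. *Cpeb4* at 8.56, *Cpeb3* at 4.22, *Elavl1* at 3.89 and *Cpeb2* at 1.85 FPKM followed. The mean of *Zfp36* exceeded that of 96.2% of the genes tested and the mean of *Cpeb2* that of 47.8%. Neighbours in this order were not always separated. *Khsrp* was above *Zfp36l2* in 3 of 6 samples, *Cpeb3* above *Elavl1* in 3 of 6 and *Pabpc4* above *Cpeb1* in 4 of 6. *Pabpc1* was above *Pabpc4*, *Zfp36l2* above *Cpeb4*, *Cpeb4* above *Cpeb3* and *Elavl1* above *Cpeb2* in all 6.

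FPKM was divided by the length of all annotated exons of a gene, which is far longer than 1 mRNA for some of these genes. For *Pabpc1* that length is 6540 bases, against 2817 for the transcript used above, and for *Elavl1* it is 10363 against 5743. Divided by the transcript's length instead, *Pabpc1* (67.4 per kilobase) stood above *Zfp36* (51.5), and *Elavl1* (7.01) above *Cpeb3* (5.31). The order of these pairs therefore depends on the length chosen, while the ratio of cKO to Ctrl FPKM of a gene does not.

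**Figure D2:**
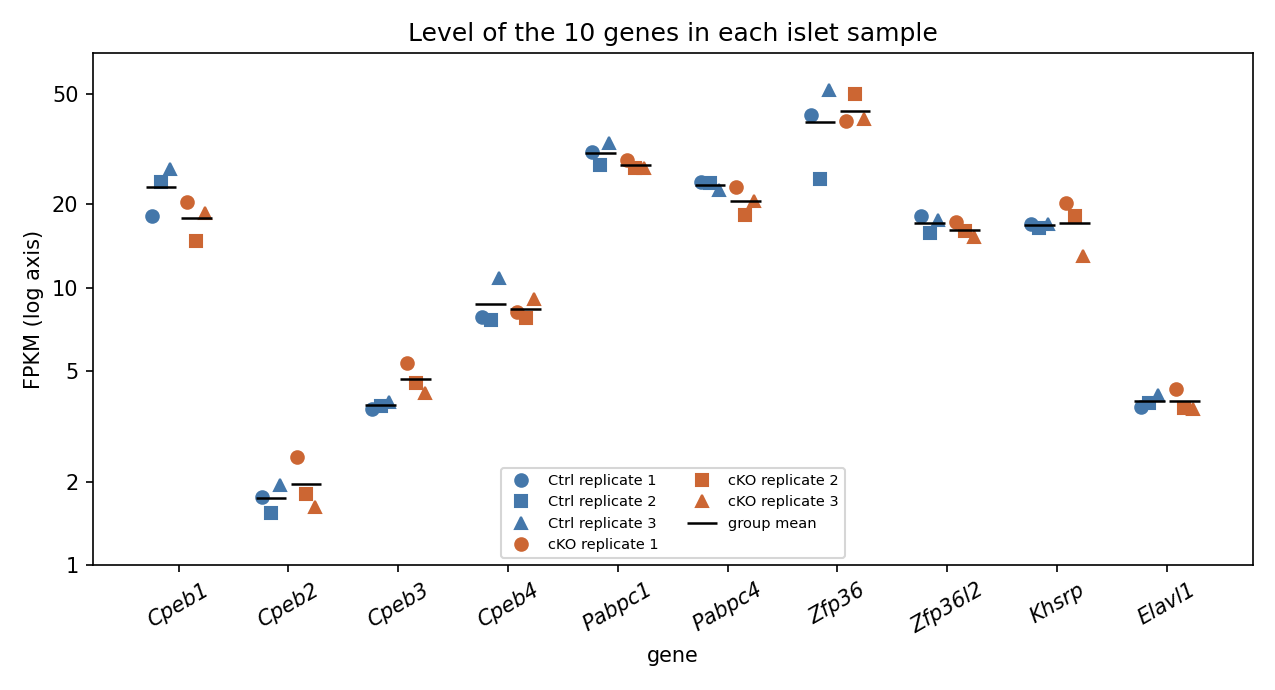
FPKM on a log axis (vertical) of the 10 genes (horizontal) in the 3 Ctrl and 3 cKO samples, 1 point per sample, with the mean of each group as a black line. *Cpeb3* is the only one of the 10 genes for which all cKO points lie above all Ctrl points.

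The comparison of cKO with Ctrl islets asked whether the mRNAs of these binders changed when *Parn* was deleted in β cells. No member passed an unadjusted p of 0.05 in either direction (0 of 10), while 7.4% of all genes tested did, 919 of them higher (4.33%) and 651 lower (3.07%) in cKO islets. With voom on the reads, 977 genes were higher and 602 lower at the main scaling. With voom scaled by total reads, a setting chosen after seeing the data, 1499 were higher and 328 lower. After adjustment over the 21211 genes, 0 genes had a p under 0.05 (limma; 0 with voom on the reads, 2 with voom scaled by total reads, 1 without Ctrl replicate 1), and the adjusted p of the members ran from 0.691 to 0.999. The fold change was positive for 4 members and negative for 6, against 9856 and 11355 of all genes. The median of the 10 log2 fold changes was -0.03, against -0.01 over all genes. For 1 member of 10 the samples of the groups did not overlap, against 13.1% of all genes. Both counts lie near the background.

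**Figure D3:**
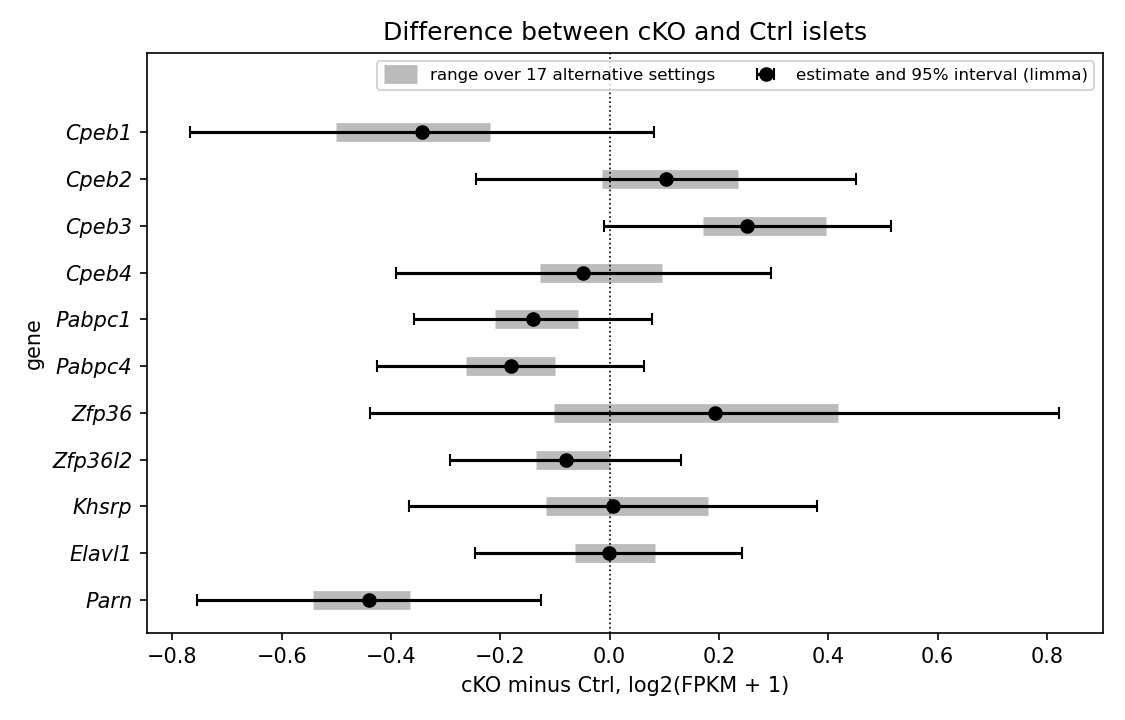
Difference between cKO and Ctrl islets on the log2(FPKM + 1) scale (horizontal axis) of the 10 genes and *Parn* (vertical axis), with the 95% interval of limma as a bar and the range over 17 alternative settings in grey. The interval of each of the 10 genes includes 0, and that of *Parn* lies below it, from -0.75 to -0.13.

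*Cpeb1* (ENSMUSG00000025586, chr7:81347026-81455465, minus strand) encodes the founding CPE-binding protein. Coordinates of this and the other genes are those deposited, on GRCm38. Its FPKM was 18.0, 24.1 and 26.8 in Ctrl and 20.3, 14.7 and 18.5 in cKO islets, here and below in the order of the replicates 1, 2 and 3. The values of Ctrl replicates 2 and 3 were above all cKO values, and Ctrl replicate 1 lay within the cKO range. The mean was 23.0 ± 4.49 FPKM (SD, n = 3) in Ctrl and 17.8 ± 2.83 in cKO islets. The log2 fold change was -0.34 (SE 0.176, 95% interval -0.77 to 0.08), with an unadjusted p of 0.0962 and an adjusted p of 0.727 (limma). Without Ctrl replicate 1, the sample with the high leukocyte markers, it was -0.50 with an unadjusted p of 0.0202 and an adjusted p of 0.346 (limma). Without cKO replicate 2 it was -0.22 (unadjusted p of 0.281) and without Ctrl replicate 3 it was -0.23 (unadjusted p of 0.275, limma), so the size of the difference rests on single samples. The interval covers values of FPKM + 1 from 0.588 to 1.06 times those of Ctrl.

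*Cpeb3* (ENSMUSG00000039652, chr19:37021291-37208601, minus strand) encodes a member of the more closely related group of CPEB2, CPEB3 and CPEB4. It had 3.66, 3.74 and 3.88 FPKM in Ctrl and 5.34, 4.54 and 4.18 in cKO islets. Every cKO sample was above every Ctrl sample, as for 7.11% of all genes. The Ctrl values were close together, with a coefficient of variation of 3.06%, while the cKO values spread by 12.8%. The log2 fold change was 0.25 (SE 0.109, 95% interval -0.01 to 0.51), the smallest unadjusted p of the 10 genes was 0.0573 and the adjusted p was 0.691 (limma). The unadjusted p fell below 0.05 under 6 of 17 alternative settings, with a smallest adjusted p of 0.434. The deposited table does not state whether strand was used in counting. The antisense gene *A330032B11Rik* shares 116 exon bases with *Cpeb3* and was listed at 0, and *March5*, listed as 5-Mar, overlaps the *Cpeb3* locus without sharing an exon base.

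*Cpeb2* and *Cpeb4* had smaller differences. *Cpeb2* (ENSMUSG00000039782, chr5:43233170-43289724, plus strand) had 1.76, 1.54 and 1.94 FPKM in Ctrl and 2.46, 1.81 and 1.62 in cKO islets. The value of cKO replicate 1 was the highest of all samples, while cKO replicate 3 lay below Ctrl replicates 1 and 3, so the groups overlapped. Its log2 fold change was 0.10 (SE 0.145), with an adjusted p of 0.901 (limma). *Cpeb2* also rested on the fewest reads, 189 to 338 per sample, for which counting alone gives an error of 7.27% at the lowest.

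*Cpeb4* (ENSMUSG00000020300, chr11:31872211-31935634, plus strand) had 7.82, 7.66 and 10.8 FPKM in Ctrl and 8.20, 7.77 and 9.10 in cKO islets. Ctrl replicate 3 was the highest of all samples, and the other values of both groups lay between 7.66 and 9.10. *Cpeb4* had a log2 fold change of -0.05 (95% interval -0.39 to 0.29), with an adjusted p of 0.961 (limma), and its sign was positive under 3 of 17 alternatives.

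The make-up of the CPEB transcripts does not depend on how libraries are scaled, since it is taken within each sample. *Cpeb1* held 57.7%, 65.1% and 61.8% of the summed FPKM of the 4 *Cpeb* genes in Ctrl and 55.9%, 51.1% and 55.4% in cKO islets. Its share was thus lower in every cKO sample than in any Ctrl sample, by 7.40 percentage points between the means. *Cpeb3* held 11.7%, 10.1% and 8.94% in Ctrl and 14.7%, 15.7% and 12.5% in cKO islets, higher in every cKO sample, by 4.09 points. For both, the exact two-sided permutation test gave p = 0.1, the smallest that 3 samples against 3 allow. Adjusted over the 8 shares tested in 3 families, p was 0.4.

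The shares of *Cpeb2* and *Cpeb4* overlapped between the groups. They were 4.75% ± 0.777 (SD, n = 3) and 23.5% ± 2.45 in Ctrl, and 5.97% ± 1.005 and 25.6% ± 2.59 in cKO islets. Leaving out 1 sample at a time, the difference stayed between -9.30 and -5.61 points for *Cpeb1* and between 3.38 and 4.996 points for *Cpeb3*. From reads not divided by gene length it was -7.76 and 4.98 points. These shares are relative, so a lower share of *Cpeb1* raises the others by construction. The endothelial, duct and β-cell marker sums given above also separated the groups. Their part in the shares, and that of the acinar and stroma markers, was not tested.

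**Figure D4:**
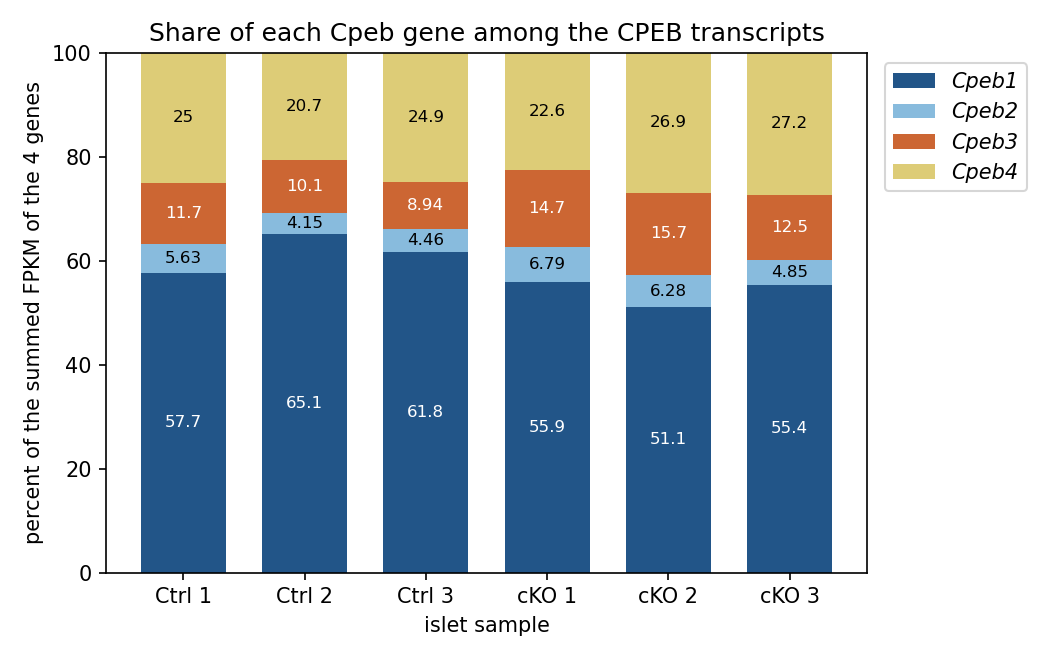
Share of each *Cpeb* gene in the summed FPKM of the 4 genes (vertical axis, percent from 0 to 100) in each of the 6 islet samples (horizontal axis). *Cpeb1* holds 57.7% to 65.1% in Ctrl and 51.1% to 55.9% in cKO islets, and *Cpeb3* holds 8.94% to 11.7% and 12.5% to 15.7%.

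*Pabpc1* (ENSMUSG00000022283, chr15:36595661-36609668, minus strand) encodes the main cytoplasmic poly(A)-binding protein. It had 30.9, 27.6 and 33.1 FPKM in Ctrl and 28.7, 26.9 and 27.0 in cKO islets. The values of cKO replicates 2 and 3 were below all Ctrl values, and cKO replicate 1 lay between Ctrl replicates 2 and 1. *Pabpc1* differed by -0.14 on the log2 scale (SE 0.0907, 95% interval -0.36 to 0.08), with an adjusted p of 0.809 (limma). Leaving out 1 sample gave -0.21 without Ctrl replicate 2 (unadjusted p of 0.0509) and -0.082 without Ctrl replicate 3 (unadjusted p of 0.360, limma). Reads of *Pabpc1* may be shared with near copies of the gene, and how the counting split them is not stated, so its level is uncertain.

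*Pabpc4* (ENSMUSG00000011257, chr4:123262351-123298925, plus strand) encodes the inducible relative. It had 23.9, 23.7 and 22.5 FPKM in Ctrl and 23.1, 18.2 and 20.5 in cKO islets. Again cKO replicate 1 lay within the Ctrl range and the other cKO samples below it. The log2 fold change was -0.18 (SE 0.102, 95% interval -0.42 to 0.06), with an unadjusted p of 0.121 and an adjusted p of 0.763 (limma). Without cKO replicate 1 it was -0.26, with an unadjusted p of 0.0328 and an adjusted p of 0.739 (limma). Without cKO replicate 2 it was -0.099 (unadjusted p of 0.334, limma). *Pabpc1* held 56.6% ± 2.90 (SD, n = 3) of the summed FPKM of both genes in Ctrl and 57.3% ± 2.14 in cKO islets. This difference of 0.762 points was within the spread of the samples (exact permutation p = 0.7).

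*Zfp36* (ENSMUSG00000044786, chr7:28376784-28380253, minus strand) encodes tristetraprolin, the ARE-binding protein made quickly after stimulation. It had 42.0, 24.7 and 51.4 FPKM in Ctrl and 39.9, 49.97 and 40.3 in cKO islets. Ctrl replicate 2 had the lowest and Ctrl replicate 3 the highest value of all samples, so the cKO values lay inside the Ctrl range. The spread in Ctrl, with a coefficient of variation of 34.4%, was the largest of the 10 genes. The log2 fold change was 0.19 (SE 0.262, 95% interval -0.44 to 0.82), with an adjusted p of 0.899 (limma). Without Ctrl replicate 2 it was -0.10. The interval of *Zfp36* covers values of FPKM + 1 from 0.738 to 1.77 times those of Ctrl. Without Ctrl replicate 3 the log2 fold change was 0.41. The antisense gene *Gm44710* shares 125 exon bases, 3.60% of the length, with *Zfp36*.

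*Zfp36l2* (ENSMUSG00000045817, chr17:84183931-84187947, minus strand), a close relative of *Zfp36*, varied less between samples. It had 18.1, 15.8 and 17.6 FPKM in Ctrl and 17.2, 16.0 and 15.3 in cKO islets, and the groups overlapped. Between the groups, *Zfp36l2* had a log2 fold change of -0.08 (SE 0.0879, 95% interval -0.29 to 0.13), with an adjusted p of 0.863 (limma). Of the summed FPKM of *Zfp36*, *Zfp36l1* and *Zfp36l2*, *Zfp36* held 64.9% ± 6.50 (SD, n = 3) in Ctrl and 69.6% ± 3.09 in cKO islets. The difference of 4.65 points was within the spread (exact permutation p = 0.4). It was 1.57 points without Ctrl replicate 2 and 8.04 points without Ctrl replicate 3. *Zfp36l1*, not one of the 10 genes, was highest in Ctrl replicate 1, at 5.27 FPKM against 1.57 to 3.24 elsewhere, the sample in which the 7 leukocyte markers were highest as well. Their part in it was not tested.

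*Khsrp* (ENSMUSG00000007670, chr17:57021051-57031522, minus strand) encodes a protein with KH domains that promotes decay of ARE-containing mRNAs. It had 16.97, 16.43 and 16.98 FPKM in Ctrl and 20.2, 18.2 and 13.0 in cKO islets. The 3 Ctrl values were nearly alike (coefficient of variation 1.89%), and the cKO values lay on both sides of them (21.5%). On the log2 scale the fold change of *Khsrp* was 0.01 (SE 0.156, 95% interval -0.37 to 0.38), with an adjusted p of 0.996 (limma).

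*Elavl1* (ENSMUSG00000040028, chr8:4285382-4325413, minus strand) encodes HuR. It had 3.72, 3.84 and 4.10 FPKM in Ctrl and 4.31, 3.69 and 3.65 in cKO islets. The lowest 2 and the highest of the 6 values were cKO samples. For *Elavl1* the log2 fold change was 0.00 (SE 0.102, 95% interval -0.25 to 0.24), with an adjusted p of 0.999 (limma). The interval covers values of FPKM + 1 from 0.843 to 1.18 times those of Ctrl, so a change within it remains possible.

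The genes that work with these binders were read from 5 lists. Of all 21211 genes tested, 7.4% were called at an unadjusted p under 0.05 (limma). Over these genes, 9856 fold changes were positive and 11355 negative. The lists are short, so 0 called in a list lies near that share. The poly(A)-binding list held 20 genes beside *Pabpc1* and *Pabpc4*, of which 17 were tested. At an unadjusted p under 0.05, 3 of these were higher and 0 lower in cKO islets, against 4.33% and 3.07% of all genes, and their median log2 fold change was 0.05 against -0.01. *Paip2b*, a PABP-interacting inhibitor of translation, had 13.5, 12.9 and 12.5 FPKM in Ctrl and 16.3, 17.1 and 16.98 in cKO islets. Every cKO sample lay above every Ctrl sample, and the spread within each group was small. Its log2 fold change was 0.35 (SE 0.0728), with an unadjusted p of 0.00247 and an adjusted p of 0.392 (limma). The unadjusted p stayed under 0.05 in all 17 alternatives.

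*Eif4g1* and *Eif4g3*, both eIF4G scaffolds that join the cap-binding complex to poly(A)-binding protein, were also higher. *Eif4g1* had 44.9, 40.7 and 42.0 FPKM in Ctrl and 55.5, 49.7 and 48.2 in cKO islets, without overlap. Its log2 fold change was 0.26 (SE 0.0878), with an unadjusted p of 0.0237 and an adjusted p of 0.590 (limma). *Eif4g3* had 12.6, 10.3 and 13.2 FPKM in Ctrl and 16.6, 14.3 and 14.0 in cKO islets, also without overlap. Its log2 fold change was 0.30 (SE 0.118), with an unadjusted p of 0.0426 and an adjusted p of 0.662 (limma). The unadjusted p stayed under 0.05 in 15 of 17 alternatives for *Eif4g1* and in 10 of 17 for *Eif4g3*. Without Ctrl replicate 2, or without cKO replicate 1, the count of 3 fell to 1.

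In the same list, 4 genes were higher and 3 lower in cKO islets without overlap, against 7.11% and 6.03% of all genes. The 3 lower ones, named after their values were seen, were *Pabpn1*, the nuclear poly(A)-binding protein, *Zc3h14*, a zinc finger poly(A)-binding protein, and *Paip1*, a PABP-interacting stimulator of translation. *Pabpn1* had 12.4, 17.1 and 14.3 FPKM in Ctrl and 12.3, 11.9 and 11.9 in cKO islets. The log2 fold change of *Pabpn1* was -0.25 (unadjusted p of 0.0764, adjusted p of 0.7002, limma), and those of *Zc3h14* and *Paip1* were -0.16 (adjusted p of 0.720) and -0.10 (adjusted p of 0.820). Without Ctrl replicate 1, 2 genes of the list were called higher and 1, *Pabpn1*, lower.

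**Figure D5:**
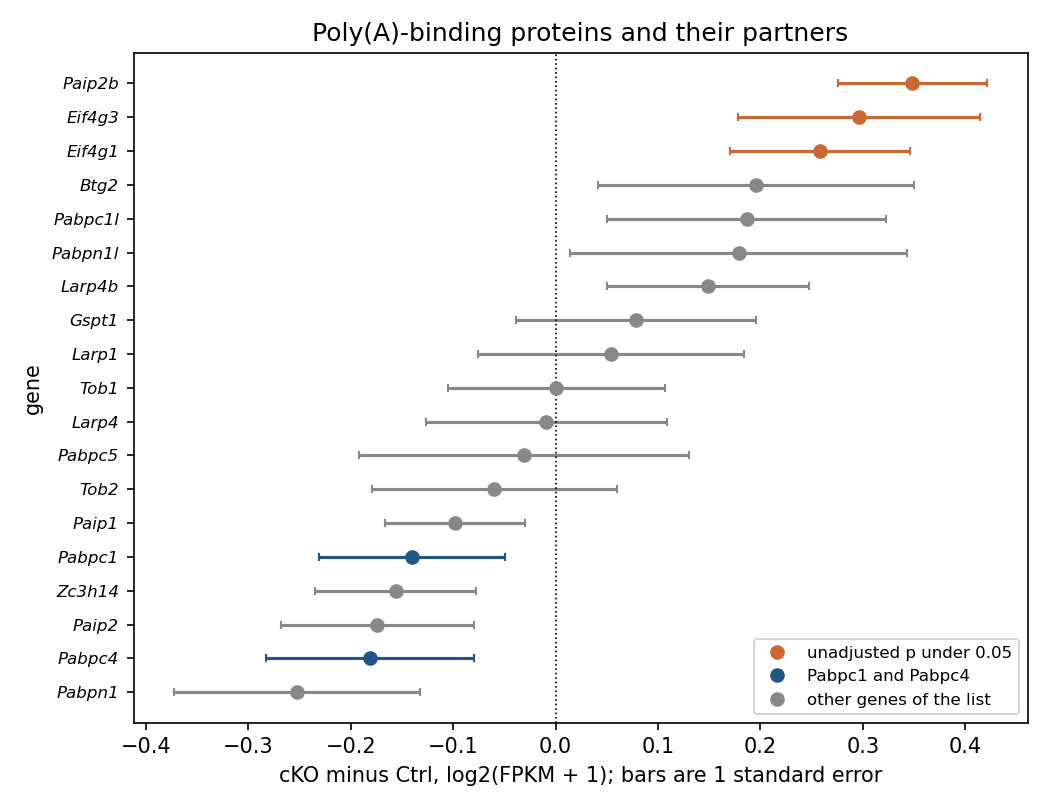
Difference between cKO and Ctrl islets on the log2(FPKM + 1) scale (horizontal axis) of the 19 tested genes of the poly(A)-binding list (vertical axis), with 1 standard error as a bar. *Paip2b*, *Eif4g3* and *Eif4g1* lie at 0.35, 0.30 and 0.26, and *Pabpc1* and *Pabpc4* at -0.14 and -0.18.

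The CPEB1 polyadenylation partners held 19 genes, 17 of them tested, with 0 called in either direction, against 7.4% of all genes. Their fold changes were positive in 5 and negative in 12, with a median of -0.06. The highest expressed were *Ddx6*, an RNA helicase, at a log2 fold change of 0.10 (adjusted p = 0.824, limma), and *Papola*, the nuclear poly(A) polymerase. *Papola* had 30.04, 28.3 and 32.2 FPKM in Ctrl and 25.7, 26.7 and 28.0 in cKO islets, without overlap, as for 6.03% of all genes in this direction. Its log2 fold change was -0.16 (SE 0.0820), with an adjusted p of 0.720 (limma). *Tent2*, the partner polymerase of CPEB1 and chosen for that role after its values were seen, had a log2 fold change of -0.06 (adjusted p = 0.924, limma).

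Beside *Zfp36*, *Zfp36l2*, *Khsrp* and *Elavl1*, the list of ARE-binding proteins held 11 genes, 10 of them tested. Of the tested ones, 0 were called, against 7.4% of all genes. The fold change was positive in 3 and negative in 7, and the median was -0.10. *Celf1* and *Tial1*, the highest expressed of these, had log2 fold changes of -0.01 (adjusted p = 0.994) and -0.12 (adjusted p = 0.820, limma). Among the neuronal relatives of *Elavl1*, *Elavl4* had 4.42 to 6.78 FPKM in Ctrl and 4.78 to 6.29 in cKO islets, with overlap, and *Elavl2* and *Elavl3* were far lower. *Elavl2* had 0.214, 0.229 and 0.318 FPKM in Ctrl and 0.445, 0.706 and 0.379 in cKO islets, and *Elavl3* had 0.0333, 0.0369 and 0.148 against 0.165, 0.309 and 0.177. Both were without overlap and neither passed the test, with adjusted p of 0.693 and 0.761 (limma). *Hnrnpd*, which encodes AUF1, was lower without overlap, with 9.73, 8.92 and 9.04 FPKM in Ctrl against 8.49, 8.45 and 8.496 in cKO islets (log2 fold change -0.11, adjusted p = 0.820, limma). Over all genes, 7.11% were higher and 6.03% lower without overlap. *Elavl2*, *Elavl3*, *Elavl4* and *Hnrnpd* were chosen after their values were seen.

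Finally, mRNAs that textbooks give as targets were read. Of 13 ARE-containing mRNAs, 12 were tested and 0 called, against 7.4% of all genes. There were 3 positive and 9 negative fold changes, with a median of -0.22 against -0.01 over all genes. *Fos* and *Jun*, immediate-early transcription factors, were the highest expressed. *Fos* had 317, 313 and 402 FPKM in Ctrl and 276, 452 and 275 in cKO islets, which overlap (log2 fold change -0.07, adjusted p = 0.966, limma). *Jun* had 95.4, 91.7 and 97.6 against 120, 168 and 102, without overlap (0.42, adjusted p = 0.689, limma). The chemokine *Cxcl2*, named after its values were seen, had 17.3 FPKM in Ctrl replicate 1 and 0.154 to 1.75 in the other 5 samples. Ctrl replicate 1 is also the sample with the high leukocyte markers. Without Ctrl replicate 1, a setting chosen after seeing the data, the median turned to 0.07, with 8 positive and 4 negative fold changes, 0 genes called higher and 1, *Vegfa*, lower.

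Of 11 mRNAs described as bound by a CPEB protein, only 6 passed the minimum of 0.1 FPKM. Of these, 0 were called, against 7.4% of all genes, with 3 positive and 3 negative fold changes. *Trp53*, the tumour suppressor, had a log2 fold change of 0.02 (adjusted p = 0.987) and *Myc*, the transcription factor, of 0.01 (adjusted p = 0.994, limma).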

How the data were processed

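Islet RNA was extracted with TRIzol and libraries were made with a SMARTER mRNA kit. The values used are FPKM as the authors deposited them, 1 column per sample. The submitters' processing notes name the builds GRCm38 and mm10. Aligner, counting tool and annotation release are not given in the sources used here. In each sample, 100% of the values corresponded to whole reads once multiplied by gene length (tolerance 0.01 read). The library size behind it equalled a median-of-ratios size factor times the geometric mean of the reads. It lay below the reads on genes in each Ctrl sample and above them in each cKO sample. With voom, the median log2 fold change over all genes was -0.019 at this scaling and 0.069 scaled by total reads. Reads read back this way served for depth and alternatives only.

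From log2(FPKM + 1), cKO and Ctrl were compared with limma 3.58.1 in R 4.3.3, as a two-sided test with trended empirical Bayes. P-values were adjusted after Benjamini and Hochberg over all 21211 genes whose mean reached 0.1 FPKM. The pseudocount of 1 shrinks the fold change of low genes. Every SE and 95% interval comes from this fit. Shares were compared by exact permutation over samples (SciPy 1.17.1). Motifs were read from GENCODE M21 transcripts, with matching on the annotated sense strand. The code was tested on simulated data.

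The 10 genes, the lists and the tests were chosen with earlier results of these data known. Named were the 10 genes, *Parn*, the list genes with an unadjusted p under 0.05 or otherwise the 2 highest expressed, and the 3 genes with the profiles nearest to *Cpeb1* and *Zfp36*. Alternatives were pseudocount, filter, trend, robust fit, sample weights, scaling, voom, a replicate block and leaving out each sample. Voom scaled by total reads, and the alternatives of *Parn* and of the poly(A)-binding list, were chosen after seeing the data. LACE-seq, qRT-PCR and protein data were not analysed here.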

Additional observations from a re-analysis of the deposited data

How the results depend on the processing

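The 17 alternative settings gave 170 fold changes of the 10 genes, of which 146 kept their direction and their side of an unadjusted p of 0.05. Another 9 passed it: *Cpeb3* under a minimum of 1 FPKM and a robust fit (both 0.25), quantile normalization (0.26), voom on the reads (0.31), voom scaled by total reads (0.40) and without cKO replicate 3 (0.32), *Cpeb1* under sample weights (-0.40) and without Ctrl replicate 1 (-0.50), and *Pabpc4* without cKO replicate 1 (-0.26). Their adjusted p ran from 0.346 to 0.906 (limma). The count of members higher in cKO was thus 1 in place of 0 in those settings of *Cpeb3* (0 to 1 when leaving out 1 sample), and the count lower was 1 under sample weights (0 to 1 when leaving out 1 sample).

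The other 15 changed sign: *Cpeb4* under sample weights (0.015) and voom scaled by total reads (0.035), *Khsrp* under sample weights (-0.041), *Elavl1* under quantile normalization (0.011) and voom scaled by total reads (0.084), and *Zfp36l2* under the latter (0.0013). Leaving out 1 sample at a time, the log2 fold change ran from -0.10 to 0.41 for *Zfp36*, from -0.014 to 0.19 for *Cpeb2*, from -0.13 to 0.10 for *Cpeb4*, from -0.12 to 0.18 for *Khsrp* and from -0.064 to 0.032 for *Elavl1*. The difference in share, which reversed for *Pabpc1* and *Zfp36l1* only, then ran from -0.632 to 2.27 points for *Pabpc1* and from -1.54 to 0.626 points for *Zfp36l1*.

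Over all genes, 651 lower and 919 higher became 1245 and 1267 under sample weights and 328 and 1499 under voom scaled by total reads. Leaving out 1 sample gave 402 to 1173 lower and 709 to 1251 higher, with 1173 lower without Ctrl replicate 1 and 402 without cKO replicate 3. The count of poly(A)-binding genes higher ran from 1 to 3. Without Ctrl replicate 1, the median log2 fold change was -0.034 for the CPEB1 partners, 0.12 for the poly(A)-binding list, -0.076 for the ARE-binding list and -0.12 for the CPEB-bound mRNAs, and it turned from -0.22 to 0.072 for the ARE-containing mRNAs. The cause of these shifts was not tested. With a replicate block, 538 genes were lower and 737 higher and 0 of the 10 members were called, so the block changed no call of a member. Deviations of same-numbered samples correlated at -0.171, -0.0219 and -0.0652, so no pairing by number was seen. With 3 samples a group, whose deviations sum to 0, these values cannot exclude a pairing. With 3 samples a group, differences of the size of the intervals given could not be detected, and counting error of the 10 genes was at most 7.27%.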

Other observations

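The genes whose profile over the 6 samples was nearest to that of *Cpeb1*, among 13353 genes with a mean of at least 1 FPKM, were *Rsrp1*, *Pfkfb2* and *Ulk3*. The root mean square difference of the centred log2(FPKM + 1) values was 0.0432, 0.0590 and 0.0634, against 0.270 for the *Cpeb1* profile itself. *Rsrp1*, an arginine- and serine-rich protein gene, had 112, 151 and 153 FPKM in Ctrl and 119, 89.1 and 112 in cKO islets. *Pfkfb2*, a regulator of glycolysis, had 9.13, 13.7 and 14.1 against 11.6, 8.17 and 9.92. As for *Cpeb1*, the value of Ctrl replicate 1 was the lowest of the Ctrl samples and that of cKO replicate 2 the lowest of all 6 in each of the 3. The nearest named gene to *Zfp36* was *Pdk4*, which encodes a pyruvate dehydrogenase kinase, at a difference of 0.163 against 0.337 for the profile. It had 5.60, 3.95 and 7.46 FPKM in Ctrl and 4.57, 6.32 and 6.02 in cKO islets, lowest in Ctrl replicate 2 and highest in Ctrl replicate 3 as *Zfp36* was. A pair of features without a gene name lay nearer, at 0.139 and 0.150. These are descriptions over 6 samples, in each of which the genes share library and depth, and no test was made.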
